A study of Homo sapiens with 6 samples.

Results

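The 78 protein-coding genes whose symbols run MRPL or MRPS followed by a number were taken from the 56305 gene symbols counted in each library. They comprise 49 MRPL genes, named for the large subunit of the mitochondrial ribosome, and 29 MRPS genes, named for the small subunit; pseudogenes, whose symbols carry a further P, are not among them. The counts come from MOLM13, a human acute myeloid leukemia line whose labels give an FLT3 internal tandem duplication and a t(9;11)(p22;q23) translocation, both present in every library. Cells were given DMSO or 1 µM ZW27941 for 24 h, with 3 libraries in each group. ZW27941 is a degrader that links the m6A writer METTL3 to the E3 ligase VHL, so that the METTL3 protein is degraded. The paper reports a partial reduction of METTL3 protein in MOLM13 at this dose and time. In NB4 cells it reports that METTL14 protein was degraded too. The comparison asks which transcripts differed once the degrader had been present for that time. The labels write the vehicle as 1 µM DMSO, and they do not say whether replicates were separate cultures, so the p-values measure the spread between these libraries of 1 line, which may be technical.

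Mitochondrial ribosomes translate the few proteins that mitochondrial DNA still encodes, all of them subunits of the respiratory chain and the ATP synthase. Their RNA is made inside the organelle from MT-RNR1 for the small subunit and MT-RNR2 for the large, whereas every protein is encoded in the nucleus, made in the cytosol and imported. Many of the proteins descend from bacterial ribosomal proteins and others exist only in mitochondria. Acute myeloid leukemia cells are known for a strong reliance on mitochondrial translation.

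Promoter sequences are shown first, and the coding and protein sequences of the genes were not compared. RefSeq promoters on GRCh38.p14, running from 250 bases before to 50 bases after the annotated start, were available for 69 of the 78 members, and the first listed start of each member was used. The shares over all promoters, here and below, count every listed start and are not limited to genes detected in these libraries. Member promoters and all promoters are therefore unlike sets, and they were not matched. The letters AAGATGGC, which the transcription factor YY1 is known to bind, were searched on both strands and stood in 20 of 69 member promoters (29%), against 2.89% of all 35116 promoters in the table. In 15 members (21.7%) they lay after the start and read in the direction of the gene, beginning 7 to 36 bases in, against 1.25% of all promoters. These 30-base windows show that position in 8 members and in 2 ribosome components with other names, with the motif in capitals, each read 5′ to 3′ on the strand of its gene:
MRPL50, chr9:101398577-101398606, minus strand: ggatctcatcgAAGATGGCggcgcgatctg
MRPS18A, chr6:43687764-43687793, minus strand: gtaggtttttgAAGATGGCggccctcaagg
MRPS30, chr5:44808949-44808978, plus strand: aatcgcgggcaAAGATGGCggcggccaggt
MRPL42, chr12:93467511-93467540, plus strand: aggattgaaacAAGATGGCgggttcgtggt
MRPL45, chr17:38297170-38297199, plus strand: tttgcgggaacAAGATGGCagcccccatac
MRPS7, chr17:75261887-75261916, plus strand: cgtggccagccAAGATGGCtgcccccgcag
MRPS18B, chr6:30617852-30617881, plus strand: gggcgtacgtcAAGATGGCggcgtctgtat
MRPS27, chr5:72320206-72320235, minus strand: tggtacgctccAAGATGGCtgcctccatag
GADD45GIP1, chr19:12957197-12957226, minus strand: cccgcacagccAAGATGGCggcgtccgtgc
PTCD3, chr2:86106234-86106263, plus strand: cagagaaatcaAAGATGGCggttgtatctg
The letters hold an ATG, and in 13 of the 16 windows of this kind that were read, 14 of them from members, that ATG was the first codon of the principal GENCODE transcript. The next codon then begins with GC and so encodes alanine.

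The letters CCGGAAG, bound by ETS factors such as GABPA, stood in 29 of the 69 promoters (42%), against 10.3% of all promoters. The letters GCATGCG, the core that NRF1 binds, stood in 7 (10.1% against 3.91%), and the E-box CACGTG, which MYC binds and which reads the same on both strands, in 6 (8.7% against 7.26%). No pair of these motifs was required to be free of overlap. The 120 bases before the first listed RefSeq start are shown for 5 members that differed between the groups and hold a match there, 2 that rose and 3 that fell, with the matched letters of any of the 4 motifs in capitals on either strand:
MRPL36, chr5:1799838-1799957, minus strand: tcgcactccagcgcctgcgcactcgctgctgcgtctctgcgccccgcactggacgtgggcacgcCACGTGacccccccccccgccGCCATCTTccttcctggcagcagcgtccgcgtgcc
MRPS34, chr16:1773135-1773254, minus strand: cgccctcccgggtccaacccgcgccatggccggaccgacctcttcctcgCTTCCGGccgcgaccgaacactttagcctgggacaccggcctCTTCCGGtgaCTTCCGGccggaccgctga
MRPL3, chr3:131502972-131503091, minus strand: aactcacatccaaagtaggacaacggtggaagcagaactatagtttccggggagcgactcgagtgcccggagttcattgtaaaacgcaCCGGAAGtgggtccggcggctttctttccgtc
MRPS22, chr3:139343874-139343993, plus strand: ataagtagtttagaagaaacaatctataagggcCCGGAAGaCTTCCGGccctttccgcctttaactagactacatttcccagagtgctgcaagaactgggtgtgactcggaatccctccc
MRPL48, chr11:73787754-73787873, plus strand: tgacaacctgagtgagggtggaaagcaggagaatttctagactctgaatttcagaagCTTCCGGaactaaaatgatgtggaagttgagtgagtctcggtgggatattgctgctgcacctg
MRPL36 holds the E-box and the YY1 letters on the reverse strand, and the other four hold ETS letters, which MRPS34 carries 3 times and MRPS22 as an inverted pair. The same motif therefore stands before the first listed start of genes that rose and of genes that fell. In GENCODE v29 the stretches of MRPL36, MRPS22 and MRPL48 lie inside the gene span, which reaches further upstream than the start used. A match says that the letters are present, and binding was not measured.

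The libraries held 143454176 to 178744976 reads on genes, and 37.4% to 39.8% of reads were tallied to no gene. ZW27941 replicate 3 stood apart: its counts differed from those of the other ZW27941 libraries by chi-square values of 7.795 and 11.53 per degree of freedom, against 4.3 to 5.1 for the other pairs, and 5.25% of its reads aligned to several places, against 3.63% to 4.07% elsewhere. The myeloid markers CD33, SPI1, LYZ, FLT3, PTPRC, CSF3R and MPO were all detected, while CD3E, MS4A1, EPCAM, KRT5 and ALB, which mark other cell types, did not pass the filter on low counts. COL1A1, a fibroblast marker, stood at 0.751 to 1.17 CPM (counts per 1000000 reads on genes, scaled with edgeR's TMM factors). METTL3 mRNA was 121.5 ± 1.17 CPM in DMSO and 122.6 ± 4.96 CPM on ZW27941 (SD, n = 3 each), a difference of 0.013 on the log2 scale that edgeR did not call (adjusted p = 0.765) and that turned to -0.023 without ZW27941 replicate 3. A degrader acts on the protein, so this transcript does not check the labels.

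All 78 members passed the filter on low counts. Between the groups, 27 of the 78 rose on ZW27941, 14 fell and 37 did not pass an adjusted p of 0.05 in edgeR (quasi-likelihood test; Benjamini-Hochberg adjustment over all 20399 genes that passed the filter). Of all genes tested 30.1% were called, 16.3% higher and 13.8% lower. The members' shares were 34.6% higher and 17.9% lower. Small changes are called more readily in well-counted genes, and these shares were not matched for level. The differences were small: log2 fold changes ran from -0.24 to 0.49, 70 of the 78 stayed under 0.25 in either direction, and the median of 0.025 stood beside -0.0019 for all genes. The members' quartiles were -0.064 and 0.119, against -0.118 and 0.114 over all genes, of which 15517 of 20399 stayed under 0.25. Every ZW27941 library was above every DMSO library in 29 members and below in 19, and over all genes tested the same held for 21.7% and 19.9%.

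The named subunits differed in balance. Among MRPL genes 14 of 49 rose (28.6%) and 12 fell (24.5%), with a median log2 fold change of 0.0019. Among MRPS genes 13 of 29 rose (44.8%) and 2 fell (6.9%), with a median of 0.066. Of all genes tested 16.3% rose and 13.8% fell, not matched for level. That split was not tested, since genes are not replicates of a condition. Without ZW27941 replicate 3, 12 MRPL genes rose and 15 fell, and 11 MRPS genes rose and 4 fell. Of all 20819 genes tested without that library 3251 rose and 2883 fell. Both medians moved down by about the same amount when libraries were scaled by their upper quartile, to -0.022 and 0.043. Under that scaling 57.9% of all calls were lower, against 45.8% here, with 10 MRPL genes higher and 14 lower and 10 MRPS genes higher and 5 lower.

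**Figure D1:**
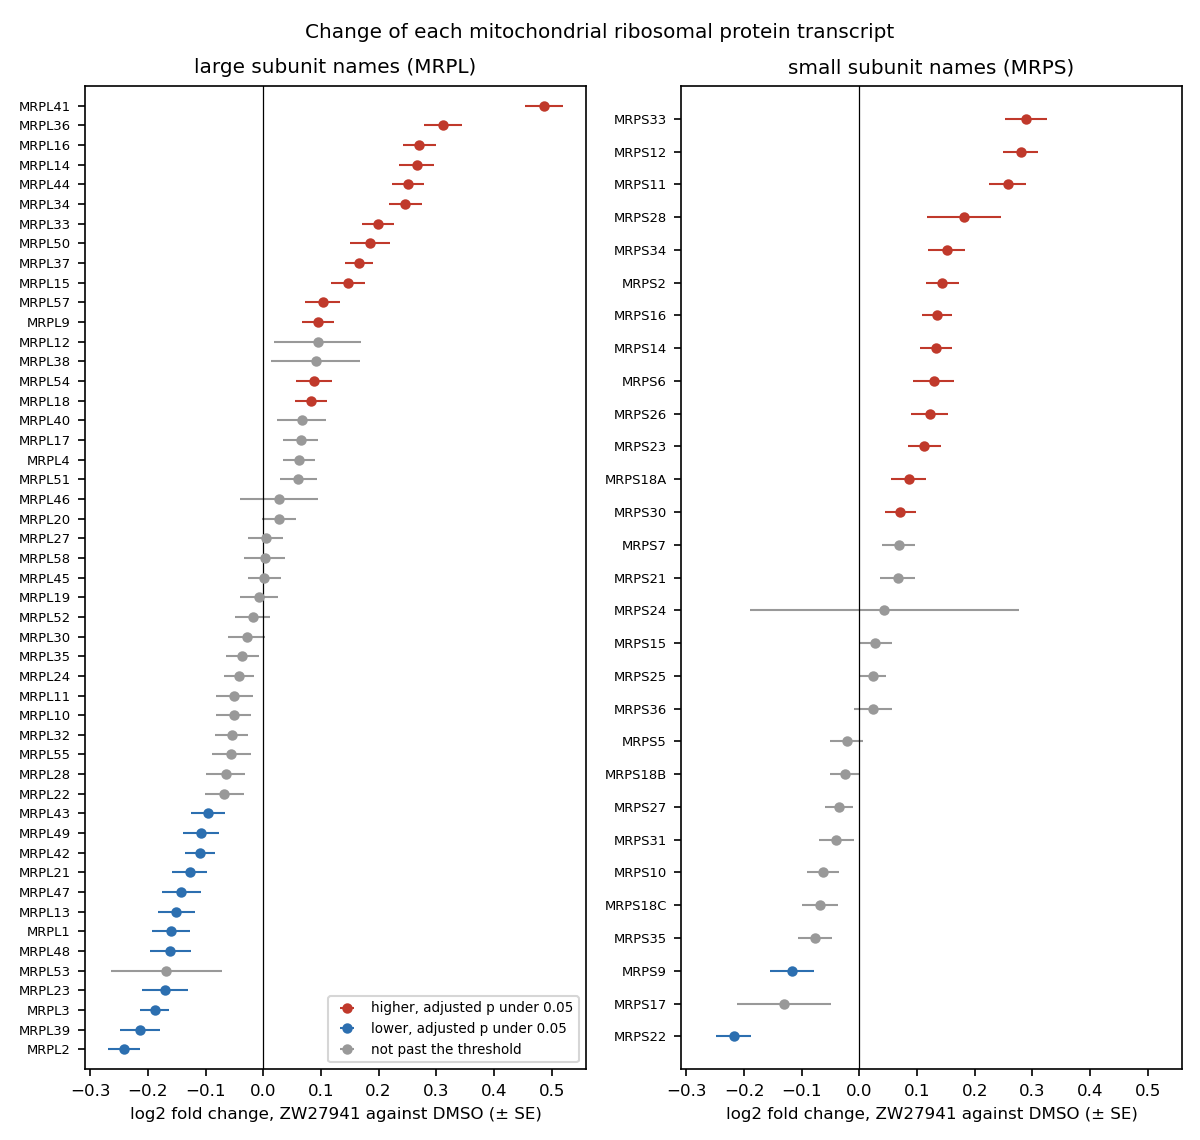
Log2 fold change on ZW27941 against DMSO (horizontal axis, bars ± SE from edgeR, n = 3 libraries per group) for each MRPL gene (left) and MRPS gene (right), coloured by call at an adjusted p of 0.05. MRPL genes fill both sides of 0, with 14 of 49 called higher and 12 lower, whereas 13 of 29 MRPS genes are called higher and 2 lower. Of all genes tested 16.3% are called higher and 13.8% lower.

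MRPL41 showed the largest rise. Its product, mL41, is a mitochondria-specific protein of the large subunit, and the gene occupies chr9:137551199-137552555 on the plus strand (GENCODE v29, GRCh38). The 3 DMSO libraries held 28.2, 28.5 and 28.3 CPM and the ZW27941 libraries 38.9, 38.4 and 41.9 CPM. The groups lay far apart, with an increase to 1.40 times the DMSO level, or 0.49 ± 0.033 on the log2 scale (SE, edgeR adjusted p = 6.17e-10).

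Behind it came 4 large subunit genes with log2 increases between 0.25 and 0.31. MRPL36, at chr5:1798386-1801366, encodes bL36m, a very small zinc-binding protein kept from bacteria. It held 30.1, 28.2 and 30.5 CPM in DMSO and 36.5, 36.1 and 37.6 CPM on ZW27941, a log2 fold change of 0.31 ± 0.033 (edgeR adjusted p = 3.14e-07). Every ZW27941 library was above every DMSO library, as also for the next 3 genes. MRPL16, at chr11:59806135-59810872, encodes uL16m, which sits close to the catalytic centre, and went from 46.5 to 47.7 CPM in DMSO to 55.2 to 58.7 CPM (0.27 ± 0.029, edgeR adjusted p = 3.64e-07). MRPL14, at chr6:44113454-44127457, encodes uL14m at the face that meets the small subunit, and went from 43.0 to 43.7 CPM to 49.7 to 53.8 CPM (0.27 ± 0.030, edgeR adjusted p = 9.35e-07). MRPL44, at chr2:223957404-223967714, encodes mL44, a protein with an RNase III fold, and went from 53.7 to 55.1 CPM to 63.0 to 66.0 CPM (0.25 ± 0.027, edgeR adjusted p = 4.84e-07). The 4 increases differed from each other by little more than their errors.

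The deepest fall was in MRPL2, whose product uL2m also lies near the catalytic centre, as does that of MRPL16, which rose. MRPL2, at chr6:43054029-43059806 on the minus strand, held 54.7, 55.9 and 55.4 CPM in DMSO and 47.3, 45.4 and 47.8 CPM on ZW27941. The groups were apart, and the level fell by 0.24 on the log2 scale (SE 0.028, edgeR adjusted p = 1.17e-06). In the annotation 14.7% of its exon bases overlap KLC4 on the other strand.

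MRPL39, MRPL3, MRPL23 and MRPL48 followed. MRPL3, the most abundant of them, encodes uL3m, another protein close to the catalytic centre, and lies at chr3:131462212-131502983. It held 104.6, 102.4 and 104.6 CPM in DMSO and 89.7, 91.1 and 92.7 CPM on ZW27941, and fell by 0.19 (SE 0.025, edgeR adjusted p = 6.48e-06). MRPL39, for the mitochondria-specific mL39, fell from 23.3 to 24.6 CPM to 20.01 to 21.11 CPM (log2 fold change -0.21 ± 0.035, edgeR adjusted p = 6.19e-05). MRPL23, for uL23m at the exit of the peptide tunnel, fell from 19.4 to 21.2 CPM to 17.4 to 18.9 CPM (-0.17 ± 0.040, edgeR adjusted p = 0.00223). MRPL48, for mL48 in the central protuberance, fell from 21.9 to 22.8 CPM to 19.5 to 21.0 CPM (-0.16 ± 0.036, edgeR adjusted p = 0.00156). In none of these 4 did the groups overlap.

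Among small subunit names the rise was led by MRPS33, MRPS12 and MRPS11. MRPS12, at chr19:38930548-38933162, encodes uS12m of the decoding centre, the protein whose bacterial relative sets the accuracy of translation. It held 51.5, 51.3 and 50.4 CPM in DMSO and 62.9, 58.9 and 64.2 CPM on ZW27941, a log2 fold change of 0.28 ± 0.030 (edgeR adjusted p = 4.88e-07). The groups were apart, and 16.3% of its exon bases overlap SARS2 on the other strand. MRPS33, for the mitochondria-specific mS33, went from 28.2 to 29.5 CPM to 33.2 to 37.2 CPM (0.29 ± 0.036, edgeR adjusted p = 3.06e-06). MRPS11, for uS11m, went from 24.25 to 24.96 CPM to 28.8 to 30.3 CPM (0.26 ± 0.032, edgeR adjusted p = 2.67e-06). MRPS34 rose less, from 50.8 to 52.1 CPM to 54.6 to 60.5 CPM (0.15 ± 0.032, edgeR adjusted p = 0.00105). MRPS28, at 5.93 to 6.37 CPM and then 6.75 to 7.65 CPM, had the widest error of the group (0.18 ± 0.064, edgeR adjusted p = 0.0353) and was not called without ZW27941 replicate 3 (edgeR adjusted p = 0.148) or without any one of the DMSO libraries (0.0592 to 0.153), nor with upper quartile scaling (0.0653).

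Only MRPS22 and MRPS9 were called lower among small subunit names. MRPS35 stood just past the threshold and was not called (-0.077, edgeR adjusted p = 0.0502). With RLE scaling, with DESeq2 and with at least 10 counts in every library, 3 MRPS genes were called lower. MRPS22, for the mitochondria-specific mS22, held 36.6, 37.4 and 37.9 CPM in DMSO and 32.2, 31.0 and 33.0 CPM on ZW27941. The groups lay apart and the level fell by 0.22 on the log2 scale (SE 0.031, edgeR adjusted p = 1.40e-05). MRPS9, whose uS9m reaches the peptidyl site, held 29.9, 26.8 and 27.9 CPM and then 25.03, 25.9 and 27.1 CPM. These groups overlapped, and the call (-0.12 ± 0.038, edgeR adjusted p = 0.0244) was lost without DMSO replicate 1 (edgeR adjusted p = 0.190), ZW27941 replicate 1 (0.129) or ZW27941 replicate 2 (0.0639).

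**Figure D2:**
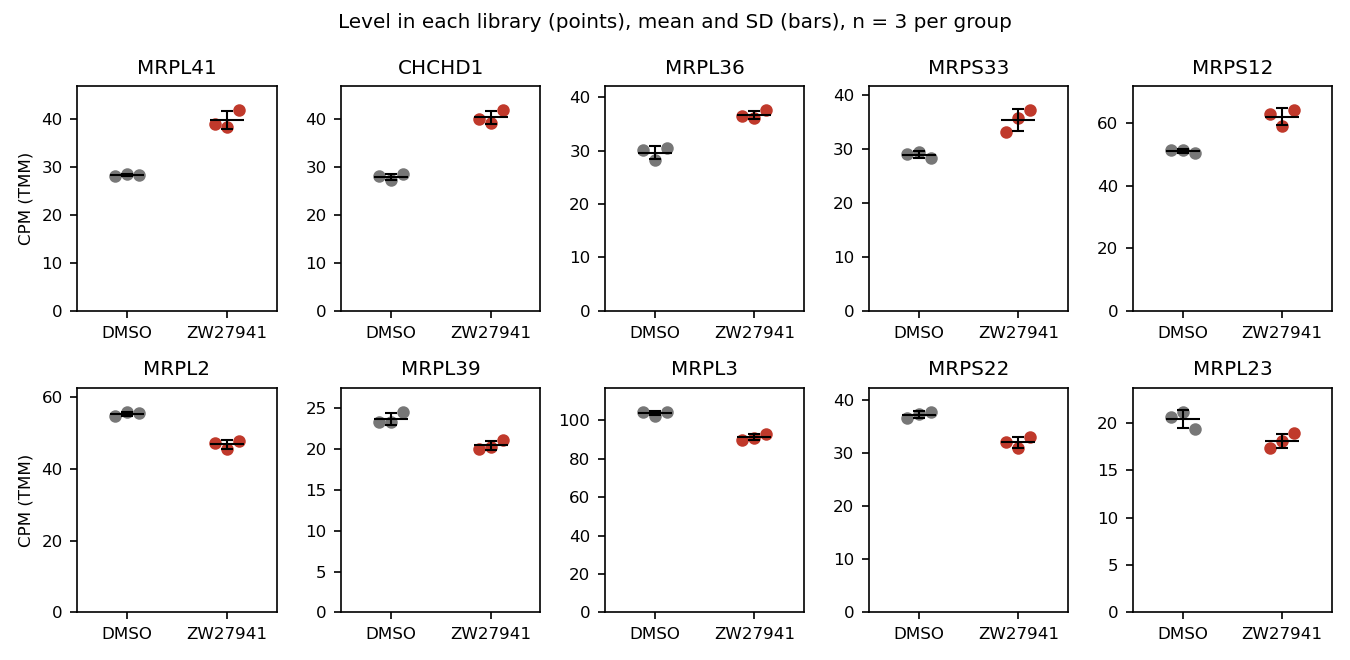
Level of 9 members and of CHCHD1, another small subunit component, in each library (vertical axis, TMM-scaled CPM from 0), with points for the 3 libraries of each group and bars for the mean ± SD. In the upper row every ZW27941 library is above every DMSO library, from 28.2 to 28.5 CPM up to 38.4 to 41.9 CPM for MRPL41, and in the lower row every ZW27941 library is below.

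The symbols do not always give a protein's place. Structures of the human particle put MRPS30 (mL65) and MRPS18A (mL66) in the large subunit, and MRPS36 is now known as a part of the 2-oxoglutarate dehydrogenase complex. MRPS30 went from 90.0 to 94.2 CPM to 94.7 to 98.5 CPM (0.071 ± 0.026, edgeR adjusted p = 0.0469). MRPS18A went from 38.5 to 40.5 CPM to 40.9 to 42.5 CPM (0.085 ± 0.030, edgeR adjusted p = 0.0332). Both calls stood close to the threshold. MRPS30 lost its call without DMSO replicate 1 or 2 or without ZW27941 replicate 1 or 2 (edgeR adjusted p = 0.101 to 0.199) with the replicate number as a block (0.0751), with RLE scaling (0.0593) and with upper quartile scaling (0.195). MRPS18A lost its call without DMSO replicate 1 or 2 or ZW27941 replicate 2 or 3 (edgeR adjusted p = 0.0911 to 0.132) and with upper quartile scaling (0.127). The other members of the MRPS18 family, MRPS18B (mS40) and MRPS18C (bS18m), differed by -0.025 and -0.068 and were not called (edgeR adjusted p = 0.508 and 0.108), and MRPS36 differed by 0.023 (edgeR adjusted p = 0.650).

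Of 5 components that carry other names, CHCHD1 changed more than any MRPL or MRPS gene. CHCHD1 encodes mS37, a protein with twin CX9C motifs that joins the small subunit late in assembly, and lies at chr10:73782047-73783652. It held 28.1, 27.4 and 28.5 CPM in DMSO and 40.0, 39.3 and 41.9 CPM on ZW27941. The groups lay far apart, with a log2 fold change of 0.53 ± 0.032 (edgeR adjusted p = 7.53e-11). GADD45GIP1, for mL64 of the large subunit, went from 48.5 to 50.3 CPM to 52.9 to 59.9 CPM (0.21 ± 0.036, edgeR adjusted p = 1.17e-04). AURKAIP1, for mS38 beside the decoding centre, went from 67.7 to 68.7 CPM to 70.0 to 77.8 CPM (0.11 ± 0.031, edgeR adjusted p = 0.00835). DAP3, for the GTP-binding mS29, fell by 0.066 (edgeR adjusted p = 0.0392), a call lost without any one library except ZW27941 replicate 3 (edgeR adjusted p = 0.0679 to 0.161), with library size only (0.0825), without a filter (0.107) and with the replicate block (0.0693). PTCD3, for mS39 at the entry of the mRNA channel, differed by -0.044 (edgeR adjusted p = 0.173).

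Placed by structure rather than by name, 17 of 52 large subunit genes rose (32.7%) and 12 fell (23.1%), with a median of 0.0036. Of 30 small subunit genes 13 rose (43.3%) and 3 fell (10%), with a median of 0.055. The shares over all genes tested were 16.3% and 13.8%. Pooled over both subunits, 15 of 46 genes for proteins with a bacterial counterpart rose (32.6%) and 8 fell (17.4%), with a median of 0.016. For proteins found only in mitochondria 15 of 36 rose (41.7%) and 7 fell (19.4%), with a median of 0.044. Within the large subunit 8 of 30 of the first class rose (26.7%) and 7 fell (23.3%), with a median of -0.033. Of the second class there 9 of 22 rose (40.9%) and 5 fell (22.7%), with a median of 0.064. In the small subunit the medians had the other order, 0.067 and -0.0012. Of the first class there 7 of 16 rose (43.8%) and 1 fell (6.25%), and of the second 6 of 14 rose (42.9%) and 2 fell (14.3%). Neither class moved as a block.

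The called genes differed in how many exons they have. In the principal GENCODE v29 transcript, members called higher had a median of 3 exons and members called lower a median of 7, with 5 for the rest. Of 22 members with 1 to 3 exons, 14 rose (63.6%) and only MRPL43 fell. Of 33 with 4 to 6 exons, 11 rose and 3 fell. Of 23 with 7 or more, only MRPL37 and MRPL9 rose and 10 fell (43.5%). The median log2 fold change went from 0.13 over 0.027 to -0.067 across these classes. Exon number was looked at after the changes of the genes had been seen, so this is a description.

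The same order was present, more shallow, over all 12918 protein-coding genes tested. There 32.3% of genes with 1 to 3 exons were called higher and 8.49% lower, and among genes with 7 or more exons 18.6% were higher and 18.9% lower. The median log2 fold change there went from 0.069 over 0.017 to -0.0031 across the classes. Members and all protein-coding genes were not matched for level, nor for exon number within a class. Spearman's rho of exon number with log2 fold change was -0.54 over the 78 members, -0.51 over MRPL and -0.63 over MRPS, against -0.14 over all protein-coding genes. Genes of the same libraries are not independent points. Among members rho was -0.11 for transcript length, -0.26 for coding length, 0.24 for GC content, 0.056 for the density of GGACT, a sequence of the kind METTL3 methylates, and 0.059 for the level in DMSO. Without members that share over 20% of their exon bases with other genes rho for exon number was -0.68, and with trends in GC content and length removed it was -0.55. Those trends were fitted on these same libraries. Of the genes tested 78.9% had values for that removal, though all 78 members did. Without ZW27941 replicate 3 rho for exon number was -0.54.

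One library property moved alongside. The share of reads that fell in no annotated exon was 12.4%, 12.2% and 11.9% in the DMSO libraries and 11.4%, 11.1% and 10.5% on ZW27941, lower in every ZW27941 library. Its part in the relation with exon number was not tested.

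**Figure D3:**
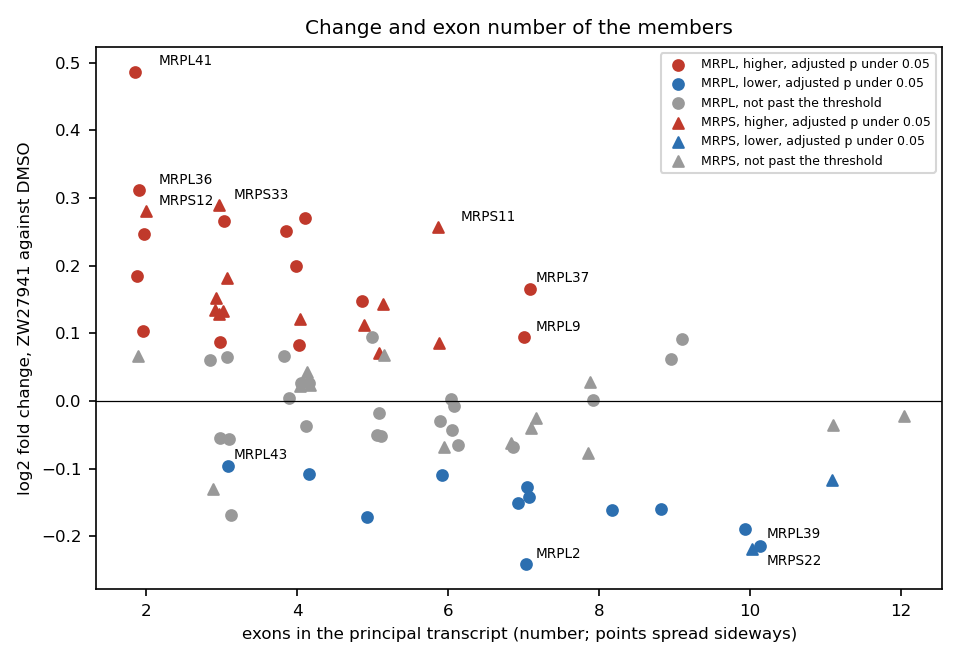
Number of exons in the principal transcript (horizontal axis, points spread sideways) against log2 fold change on ZW27941 (vertical axis) for the 78 members, circles for MRPL and triangles for MRPS, coloured by call. Called genes above 0 lie mostly at 2 to 6 exons and called genes below 0 mostly at 7 or more. The exceptions are MRPL37 and MRPL9, which rose with 7 exons, and MRPL43, MRPL49, MRPL23 and MRPL42, which fell with 3 to 6.

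**Figure D4:**
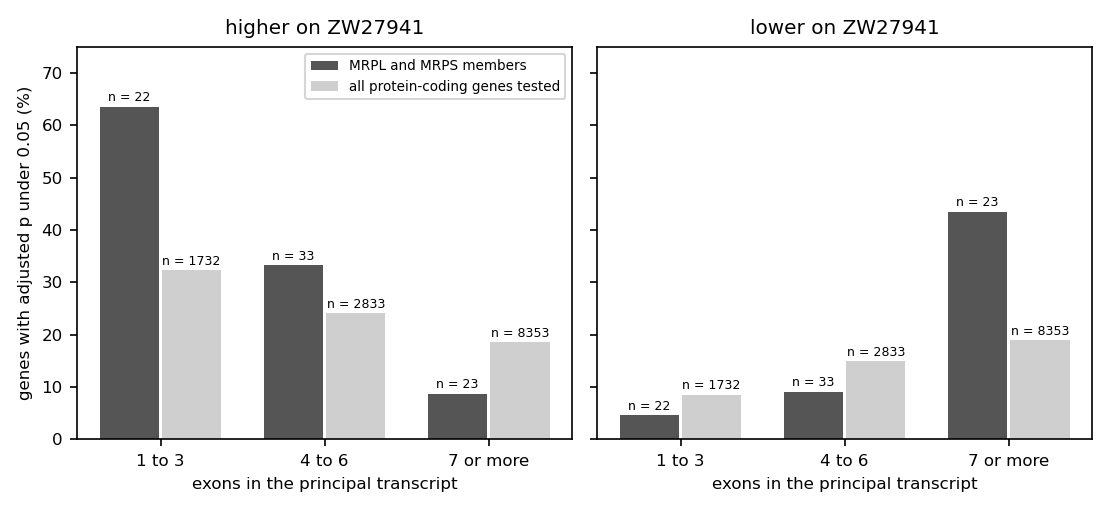
Share of genes called higher (left) and lower (right) at an adjusted p of 0.05 (vertical axis, percent) by exon class, for members (dark bars) and all protein-coding genes tested (light bars), with the number of genes above each bar. Members run from 63.6% to 8.7% called higher and from 4.55% to 43.5% called lower, a steeper course than that of all genes. Members and all genes were not matched for level, nor for exon number within a class.

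The called genes were also counted by the promoter motifs shown above. The shares over all genes tested were 16.3% higher and 13.8% lower. Of the 20 members with the YY1 letters 5 rose (25%) and 2 fell (10%). Of the 49 without, 20 rose (40.8%) and 8 fell (16.3%), and the medians were 0.027 and 0.062. With ETS letters 10 of 29 rose (34.5%) and 5 fell (17.2%), and without them 15 of 40 rose (37.5%) and 5 fell (12.5%). Of the 6 with the E-box 2 rose (33.3%) and 1 fell (16.7%). Of the 63 without it 23 rose (36.5%) and 9 fell (14.3%). None of the 7 members with the NRF1 letters was called by edgeR or DESeq2, and before adjustment a p under 0.05 was reached by 1 that was higher and 1 that was lower. Of the 62 members without these letters 25 rose (40.3%) and 10 fell (16.1%). Groups of 6 or 7 members are too small for their few calls, or none, to be set against these shares. The motif groups were counted after the changes had been seen and were not tested.

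Summed over the genes, the 2 sets of transcripts were slightly higher on ZW27941. MRPL genes together made up 2122, 2121 and 2109 CPM in the DMSO libraries and 2142, 2128 and 2209 CPM on ZW27941. MRPS genes together made up 1523, 1512 and 1501 CPM and then 1544, 1543 and 1591 CPM. Neither sum overlapped between groups, and in both ZW27941 replicate 3 was the highest library. The log2 ratio of the group means was 0.029 for MRPL and 0.045 for MRPS, and 0.012 and 0.030 without that replicate. With upper quartile scaling they were 0.0054 and 0.021. The ratio of MRPL to MRPS was 1.3933, 1.4024 and 1.4051 in the DMSO libraries and 1.3873, 1.3795 and 1.388 on ZW27941, again without overlap, though the nearest libraries differ by under 1%. The members' share of all counts went from 0.362% ± 0.0027 to 0.373% ± 0.0054 (SD, n = 3).

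Neither ribosomal RNA was called by edgeR or DESeq2, and 0 of the 2 had an unadjusted p under 0.05. MT-RNR2 was 4765 ± 128 CPM in DMSO and 4710 ± 45.8 CPM on ZW27941 (log2 fold change -0.017, edgeR adjusted p = 0.692). MT-RNR1 was 415 to 442 CPM in DMSO but 359, 442 and 560 CPM in the ZW27941 libraries, so that the treated libraries spread on both sides of the controls (0.091, edgeR adjusted p = 0.458). Its difference was -0.092 without ZW27941 replicate 3 and 0.24 without replicate 1, the latter called (edgeR adjusted p = 0.00143). MT-TV, the tRNA that serves as a structural RNA of the large subunit, had no count in any library.

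**Figure D5:**
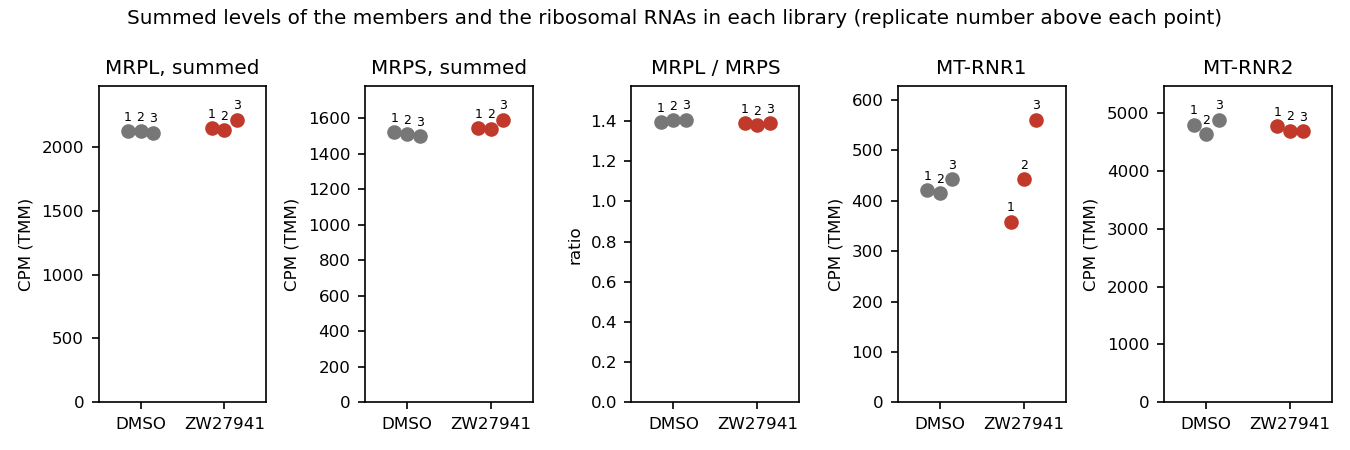
Summed MRPL and MRPS levels, their ratio, and the levels of MT-RNR1 and MT-RNR2 in each library (vertical axes from 0, TMM-scaled CPM or ratio), with the replicate number above each point. The sums of ZW27941 libraries lie just above those of DMSO, while MT-RNR1 spreads from 359 to 560 CPM on ZW27941.

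Levels of the members spanned 0.279 to 172 CPM as means over the 6 libraries, and 63 of the 78 lay between 20 and 120 CPM. Per kilobase of principal transcript the most abundant in DMSO was MRPL33, for bL33m, with 155 CPM per kb, followed by MRPL18 with 97.97 CPM per kb. The highest MRPS gene was MRPS21, for bS21m, with 81.0 CPM per kb. MRPL33 rose, from 79.5 to 82.0 CPM to 90.0 to 96.0 CPM (0.20 ± 0.028, edgeR adjusted p = 1.25e-05), and MRPS21 differed by 0.066 (edgeR adjusted p = 0.104).

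The 5 members under 5 CPM were MRPS24, MRPL53, MRPL38, MRPS17 and MRPL12, a set chosen after their values were seen. In all 5 more than 20% of the exon bases are shared with other genes of GENCODE v29, as in 14 of the 78 members. MRPL12 shares 68.2% with the overlapping AC139530.2, MRPL53 45.2% with CCDC142 and MRPS24 23.2% with the read-through URGCP-MRPS24, in each case on the same strand. HTSeq by default leaves out reads that fit more than 1 gene, and the setting used is not given in the sources used here. The lowest member without such sharing had 5.45 CPM. None of the 5 was called by edgeR or DESeq2, 0 had an unadjusted p under 0.05, and their levels are uncertain.

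Pseudogenes of the members took few reads. Of 73 rows with a pseudogene symbol, covering 34 of the members, 25 had a count and 7 passed the filter, of which MRPL37P1, at 0.21 CPM in DMSO and 0.115 CPM on ZW27941, fell (edgeR adjusted p = 0.0269) and was not called by DESeq2. Only 3 reached 1% of their parent's CPM, all copies of MRPS31, with MRPS31P5 at 11.4%.

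Genes that serve the ribosome were counted from lists written with earlier results of these data known. None of these lists was tested as a set. Of 24 assembly factors 6 rose (25%) and 2 fell (8.33%), with a median of 0.050. Over all genes tested 16.3% were called higher and 13.8% lower. MRM3, a methyltransferase of the large subunit RNA, went from 25.9 to 28.5 CPM to 29.03 to 32.11 CPM (0.18, edgeR adjusted p = 0.00129), NOA1, a GTPase of the small subunit, from 63.5 to 64.9 CPM to 71.1 to 73.0 CPM (0.16, edgeR adjusted p = 6.31e-05) and MRM1, also a methyltransferase, from 22.2 to 22.7 CPM to 23.9 to 25.1 CPM (0.12, edgeR adjusted p = 0.00593). The others that rose were FASTKD2, MTERF4 and MTERF3, and the pair called lower was NSUN4 and NGRN. No assembly factor was called lower without a filter on low counts, or without DMSO replicate 1, 2 or 3 or ZW27941 replicate 1, and 1 was called lower without ZW27941 replicate 2 or 3. Those called higher numbered 3 without DMSO replicate 3 and with upper quartile scaling.

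Of 16 translation factors and mRNA-binding proteins 3 rose (18.8%) and 4 fell (25%), with a median of 0.038. The shares over all genes tested were 16.3% and 13.8%. The initiation factors took opposite sides: MTIF3 rose from 33.0 to 34.2 CPM to 39.4 to 39.5 CPM (0.23, edgeR adjusted p = 3.02e-06), and MTIF2 fell by 0.14 (edgeR adjusted p = 2.33e-04). LRPPRC and SLIRP, which form 1 complex that stabilises mitochondrial mRNA, both fell. LRPPRC went from 473.7 to 491.5 CPM to 423.3 to 428.2 CPM (-0.17, edgeR adjusted p = 1.40e-05), and SLIRP from 29.5 to 30.4 CPM to 25.3 to 26.9 CPM (-0.20, edgeR adjusted p = 4.52e-05). No group overlapped in these genes.

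In the machinery that transcribes mitochondrial DNA, TEFM, the elongation factor, rose (0.16, edgeR adjusted p = 0.00196), POLRMT, the polymerase, fell by 0.098 (edgeR adjusted p = 0.00673), and the other 3 of 5 were not called. Of these 5 genes 20% rose and 20% fell, against 16.3% and 13.8% of all genes tested. Among 9 nuclear regulators of mitochondrial genes 3 rose (33.3%) and 1 fell (11.1%). PPARGC1A, a coactivator of mitochondrial biogenesis, rose from 1.22 to 1.26 CPM to 1.89 to 2.26 CPM (0.71 ± 0.10, edgeR adjusted p = 1.43e-05), a large relative change at a low level. GABPA, an ETS factor, went from 51.8 to 52.5 CPM to 56.8 to 57.8 CPM (0.13, edgeR adjusted p = 4.28e-04), and YY1 rose by 0.12 (edgeR adjusted p = 5.41e-04). MYC fell from 371.6 to 386.0 CPM to 338.6 to 344.4 CPM (-0.15, edgeR adjusted p = 5.78e-05).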

How the data were processed

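RNA from MOLM13 cells, in 6 libraries, 3 given DMSO and 3 given ZW27941, was sequenced on an Illumina NovaSeq. The deposited values are raw counts per gene symbol, made by the authors without normalization. The submitters' processing notes name HISAT2, SAMtools 1.19.2, HTSeq 2.0.3 and hg38; the annotation and the strand setting are not given in the sources used here. The 5 HTSeq tallies, 37.4% to 39.8% of reads, were left out.

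Counts were analysed with edgeR 4.0.16 in R 4.3.3 (TMM, filterByExpr, quasi-likelihood test) with p-values adjusted by Benjamini-Hochberg over 20399 genes at a threshold of 0.05. The common coefficient of variation was 3.11%. The procedure was first tested on simulated data, and the outcome of that test is not given here. DESeq2 1.42.0, other scalings and filters, a replicate block, removal of GC and length trends, and leaving out each library served as alternatives. Replicate numbers do not pair the libraries: same-numbered deviations correlated by -0.012, 0.012 and 0.017.

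Gene models came from GENCODE v29 (GRCh38), which may differ from the annotation counted on, and promoters from RefSeq (GRCh38.p14). The principal transcript sets exon number and length, and per-length levels depend on that choice. The removal of GC and length trends used the longest transcript of each gene instead.

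The members and lists were chosen with earlier results of these data known. Genes were named by rule: in MRPL and in MRPS up to 5 called genes with the largest rise and 5 with the largest fall, the MRPS18 family, MRPS30, MRPS36, all components under other symbols, the highest gene per length of each, METTL3, up to 3 called genes of lowest p per related list, and the ribosomal RNAs. Other names complete a count or, for MRPS35, stand at the threshold, and were chosen after values were seen. The results of 2 marker genes are not reported here.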

Additional observations from a re-analysis of the deposited data

How the results depend on the processing

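Across the alternatives 34 to 44 members were called, against 41, and 34 to 41 of those 41 kept their call. Leaving out 1 library at a time gave 12 to 14 MRPL genes higher and 10 to 15 lower, 10 to 13 MRPS genes higher and 1 to 4 lower. MRPS genes called lower numbered 5 with upper quartile scaling, 4 with GC and length trends removed and 1 at an adjusted p of 0.01. Upper quartile scaling shifted the median of all genes to -0.025 and made 57.9% of all calls lower, against 45.8%. It moved the MRPL and MRPS medians to -0.022 and 0.043, the log2 ratios of their summed CPM from 0.029 and 0.045 to 0.0054 and 0.021, MRPS36 to -0.00053 and METTL3 to -0.010, and left 3 assembly factors higher. Assembly factors called lower fell from 2 to 1 by library size only, 0 without a filter and 1 with the replicate block, and leaving out 1 library gave 3 to 6 higher and 0 to 1 lower. With the replicate block 40 of the 41 member calls remained, MRPS30 (edgeR adjusted p = 0.0751) being lost, as was DAP3 (edgeR adjusted p = 0.0693). Leaving out 1 library gave METTL3 from -0.023 (without ZW27941 replicate 3) to 0.035, MT-RNR1 from -0.092 (without ZW27941 replicate 3) to 0.24, and MT-RNR2 from -0.038 to 0.00044 (without DMSO replicate 3). The cause of these changes was not tested. The GC and length check is void over all genes, because 78.9% of them had values, but all 78 members had one. Standard errors were 0.075 to 0.23 for the 5 members under 5 CPM and 0.024 to 0.067 for the others.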
